A study of Homo sapiens with 24 samples.

Results

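Mitochondrial ribosomal protein genes encode the proteins of the mitochondrial ribosome, and were taken here as all protein-coding genes of GENCODE 29 whose symbol begins with MRPL or MRPS followed by a number. The rule found 78 genes among the 12285 genes of the expression table, and these 78 were also all the genes that the annotation holds by the same rule. The samples were 24 RNA-seq libraries of K562, an established human leukaemia line of erythroid character. The culture was separated by centrifugal elutriation, which sorts cells by size to obtain a population in one stage of the cell cycle, and was then sampled every 2 h from 0 h to 46 h in RPMI medium with 10% bovine calf serum and antibiotics. No drug, genetic change or second culture was part of the design, so time was the only variable and each time point had 1 library. All 14 erythroid marker genes looked up were in the table, with a median level of 254 FPKM (sequenced fragments scaled for transcript length and library size, the unit of the deposited table).

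The mitochondrial ribosome translates the few proteins that mitochondrial DNA encodes, which are core subunits of the respiratory chain and of ATP synthase. Its own proteins are all made from nuclear genes, translated in the cytosol and imported. Some have a counterpart in the bacterial ribosome, and others were acquired in the mitochondrial lineage and have no counterpart in the bacterial ribosome. The large subunit joins amino acids and holds the exit tunnel, and the small subunit holds the decoding centre.

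By the roles known for the proteins, 51 of the 78 genes encode large subunit proteins, of which 31 have a bacterial counterpart and 20 do not. Another 26 encode small subunit proteins, of which 17 have a bacterial counterpart and 9 do not. The symbols do not always give the subunit: the proteins of MRPS18A and MRPS30 sit in the large subunit and were counted there. MRPS36 was left without a subunit, since its protein is now known as a component of the 2-oxoglutarate dehydrogenase complex rather than of the ribosome. It was kept among the 78 because the rule selects by symbol.

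The samples at 16 h and 18 h stand apart, since a large part of the transcriptome departs there from the neighbouring time points, and the study treats them as anomalous. The main counts below are therefore given with all 24 time points and with the 22 that remain without them, and each other value names the time points it covers. By visual inspection the study also marked 32 h as a milder anomaly, which its detection function did not call. The 32 h sample is kept among the 22. The depth of the libraries is unknown, and no spread between replicate cultures can be given.

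All 78 genes were expressed at every time point, and none of their values was listed at 0. Their median levels over the 24 time points ran from 11.1 to 195 FPKM, a ratio of 17.5, with the middle 50% of genes between 44.7 and 92.8 FPKM. The median of the 78 medians was 68.0 FPKM, against 13.4 FPKM over all genes, and 77 of the 78 lay above the median of all genes. The spread was present within both subunits and both kinds of ancestry. The median was 66.2 FPKM for the large subunit and 70.8 FPKM for the small, and 70.6 FPKM with and 55.5 FPKM without a bacterial counterpart. Cytosolic ribosomal protein genes had a median of 581 FPKM and nuclear-encoded respiratory chain subunits of 147 FPKM.

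MRPL20, a large subunit protein with a bacterial counterpart, was the highest, with a median of 195 FPKM and a range of 153 to 258 FPKM without 16 h and 18 h. MRPL37 followed at 154 FPKM (133 to 234 FPKM) and MRPL51 at 135 FPKM (109.6 to 156 FPKM), both of them large subunit proteins without a counterpart in the bacterial ribosome. MRPS16 of the small subunit had a median of 125 FPKM and MRPL18 of the large subunit 123 FPKM. At the other end, MRPL57 was lowest at 11.1 FPKM (8.30 to 12.2 FPKM). MRPL44, which has the fold of an RNase III enzyme, came next at 17.6 FPKM and MRPS31 at 21.1 FPKM. MRPS26 had a median of 22.9 FPKM and MRPL43 of 23.1 FPKM. Of the 77 pairs of neighbours in this order, 1 pair did not overlap in range over the 22 time points. The ranges do not pair values of the same library, so overlap does not settle the order of neighbours.

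**Figure D1:**
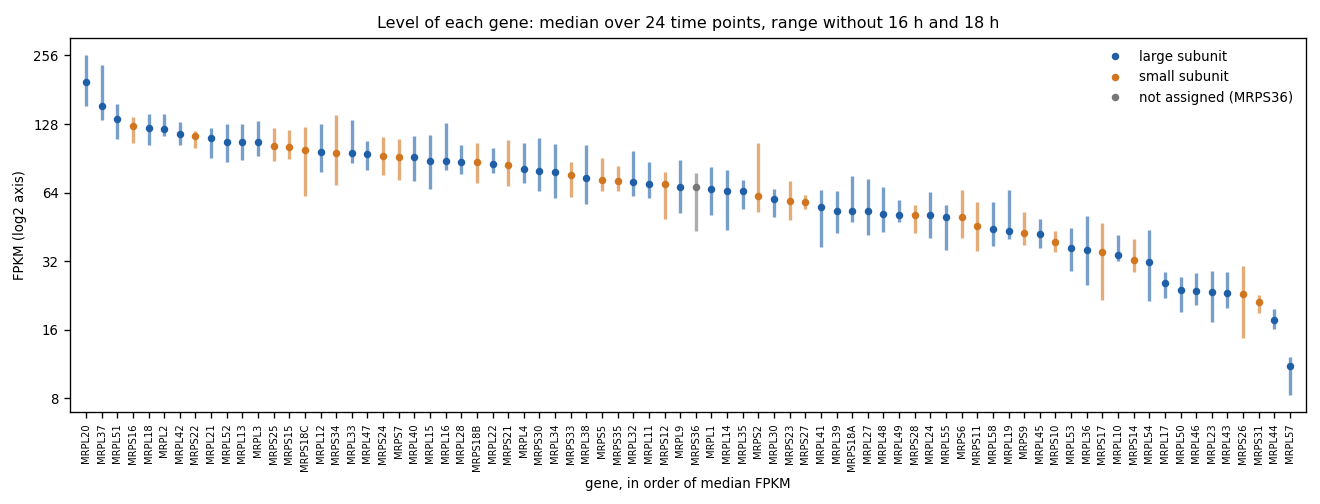
Each gene is a dot at its median FPKM over 24 time points, with a line for the range over 22 time points (without 16 h and 18 h) (vertical axis logarithmic), in order of the median and coloured by subunit. The levels descend without a break from MRPL20 at 195 FPKM, and MRPL57 stands below the rest at 11.1 FPKM, with both subunits spread along the order.

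The named genes with an unusual place or function lay inside this range. MRPL12, whose protein forms the flexible stalk that recruits translation factors, had a median of 96.9 FPKM. MRPL58, a peptidyl-tRNA hydrolase built into the large subunit that can release stalled chains, had a median of 44.4 FPKM. The 3 paralogs that descend from bacterial S18 differed, at 53.4 FPKM for MRPS18A, 87.2 FPKM for MRPS18B and 98.2 FPKM for MRPS18C. MRPS30 had a median of 79.5 FPKM and MRPS36 of 67.9 FPKM. Without 16 h and 18 h the ratio of the highest to the lowest FPKM had a median of 1.5 over the 78. It was 1.75 over all genes, whose levels were lower, so the comparison is not between genes of like level. The median ratio was 1.49 for the respiratory chain subunits and 1.75 for the cytosolic ribosomal protein genes. Among the 78 the ratio was largest in MRPS17 (2.17), MRPS26 (2.08) and MRPL54 (2.07), and smallest in MRPS27 (1.16), MRPS22 (1.19) and MRPS31 (1.21). In total 7 of the 78 reached a ratio of 2, and the share of all genes that did was not counted.

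Promoters are shown for genes whose course is described below, because nuclear respiratory factor 1 (NRF1) and ETS family factors such as GABP are known regulators of nuclear genes for mitochondrial proteins. The sequences are the 250 bases before the start of the gene in RefSeq (GRCh38.p14), which held 70 of the 78 genes. Capitals mark the letters GCATGCGC, the core of the NRF1 motif, or CCGGAAGT, a core of ETS motifs, each searched on both strands. The 5′ to 3′ sequences, with coordinates and strand, were as follows.
MRPL20, highest level, chr1:1407294-1407543, minus strand: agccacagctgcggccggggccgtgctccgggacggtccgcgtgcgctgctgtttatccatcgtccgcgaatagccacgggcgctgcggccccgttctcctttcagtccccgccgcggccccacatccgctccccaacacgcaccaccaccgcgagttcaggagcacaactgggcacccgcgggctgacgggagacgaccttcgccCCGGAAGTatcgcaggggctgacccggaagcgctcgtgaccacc
MRPL27, called for a 24 h order in time, chr17:50373185-50373434, minus strand: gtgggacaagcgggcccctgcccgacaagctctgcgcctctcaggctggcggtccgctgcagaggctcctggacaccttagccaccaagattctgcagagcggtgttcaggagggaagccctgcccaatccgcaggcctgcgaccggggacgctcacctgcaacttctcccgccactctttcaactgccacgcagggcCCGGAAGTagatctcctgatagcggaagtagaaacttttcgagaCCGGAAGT
MRPL40, lower with time, chr22:19432295-19432544, plus strand: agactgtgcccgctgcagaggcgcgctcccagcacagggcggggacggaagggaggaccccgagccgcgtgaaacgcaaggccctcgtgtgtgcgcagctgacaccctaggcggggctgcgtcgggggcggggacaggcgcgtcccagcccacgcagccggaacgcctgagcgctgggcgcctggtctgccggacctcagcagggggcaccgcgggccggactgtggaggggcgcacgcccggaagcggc
MRPL30, higher with time, chr2:99180934-99181183, plus strand: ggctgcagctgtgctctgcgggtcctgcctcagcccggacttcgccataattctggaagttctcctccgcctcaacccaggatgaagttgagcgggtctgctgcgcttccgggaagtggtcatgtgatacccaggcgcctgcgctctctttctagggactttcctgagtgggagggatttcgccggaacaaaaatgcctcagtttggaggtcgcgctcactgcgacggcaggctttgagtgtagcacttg
MRPL32, high Kendall rank and opposite to its neighbour, chr7:42932126-42932375, plus strand: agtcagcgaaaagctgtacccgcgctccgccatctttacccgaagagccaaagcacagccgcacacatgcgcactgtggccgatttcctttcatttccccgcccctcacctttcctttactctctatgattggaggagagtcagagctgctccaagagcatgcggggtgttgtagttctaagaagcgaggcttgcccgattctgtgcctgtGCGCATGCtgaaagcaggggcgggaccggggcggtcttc
MRPS11, shared with MRPL46 and chosen after the values were seen, chr15:88467458-88467707, plus strand: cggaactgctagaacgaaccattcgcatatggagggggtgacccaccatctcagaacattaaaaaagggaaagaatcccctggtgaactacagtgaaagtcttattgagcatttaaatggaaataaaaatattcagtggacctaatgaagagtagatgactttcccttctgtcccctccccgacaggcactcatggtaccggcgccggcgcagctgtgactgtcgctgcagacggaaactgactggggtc

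The NRF1 core was present in 6 of the 70 promoters (8.57%), those of MRPL17, MRPL22, MRPL32, MRPL52, MRPS18B and MRPS18C. It was present in 5.39% of 8545 other protein-coding genes of the table and in 2.81% of all 27305 RefSeq promoters of the same length. The ETS core was present in 9 promoters (12.9%), those of MRPL3, MRPL20, MRPL27, MRPL38, MRPL47, MRPL51, MRPL53, MRPS22 and MRPS34, against 8.34% and 3.64%. No promoter of the 70 held both, so the matches of one did not overlap those of the other, while in MRPL17 a match and its reverse complement overlapped. MRPL27 held the ETS core at 8 and at 52 bases before the start, and MRPL20 at 44 bases. The promoters of MRPL40, MRPL30 and MRPS11 held neither set of letters. Only these exact letters were searched, so shorter or variant forms of either motif were not counted.

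Some of these genes lie head to head with another gene. In 13 of the 70 (18.6%) the 250 bases overlapped those of a protein-coding gene on the other strand, against 13.9% of 8532 other protein-coding genes of the table. MRPL46 and MRPS11, of opposite subunits, face each other and share 181 bases of the stretch shown. Their log2 levels had a Pearson r of 0.22 over the 22 time points and 0.31 over 24, and over the 22 each had a higher r with the median of the other members (0.60 for MRPL46 and 0.50 for MRPS11). MRPL32 shares 201 bases with PSMA2, a proteasome subunit, and the r between these neighbours was -0.78 over 22 and -0.77 over 24 time points. MRPL18 shares 209 bases with TCP1, a chaperonin subunit, and the r was 0.54 over 22 and 0.51 over 24. MRPS12 shares 180 bases with SARS2, the mitochondrial seryl-tRNA synthetase, and the r was 0.19 over 22 and 0.58 over 24. Whether the libraries kept strand is not given in the sources used here, so reads of MRPL32 and MRPS12 cannot be told from those of the neighbours where their exons overlap. In all, 41 of the 78 genes share exonic positions with another annotated gene (16 on the same strand and 29 on the other) and 34 have annotated pseudogenes. Correlations here and below are across time points of 1 culture and describe these libraries only.

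Most of the genes followed a common course, higher from 8 h to 14 h than at the start and lower towards the end. Each gene was set against its own mean over the 22 time points on log2(FPKM + 1). The median of the 78 stood at -0.02 in the 0 h sample and climbed from 0.09 (8 h) to 0.12 (10 h) and 0.14 (14 h). It was 0.09 at 20 h and close to 0 from 22 h to 28 h, and then declined from -0.03 (36 h) to -0.07 (40 h), -0.12 (44 h) and -0.20 (46 h). The median of all genes stayed between -0.03 and 0.05 at the same 22 time points. Both subunits showed the course, with 0.14 and 0.13 at 14 h and -0.21 and -0.18 at 46 h for the large and the small subunit.

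Counts of genes showed the same. Of the 78, 66 were above their own mean in both the 10 h and the 14 h samples, where 48.4% and 46.3% of all genes were, and 9 were in the 46 h sample, where 49.8% of all genes were. The 0 h sample, with 34 of the 78 against 48.2% of all genes, and the 30 h sample, with 50 against 58.5%, were nearer to the share over all genes. Compared directly, 65 genes were higher at 14 h than at 0 h and 72 were lower at 46 h than at 14 h, with a median difference of -0.36 on the log2 scale. Among all genes 49.6% were higher at 14 h than at 0 h and 48.2% were lower at 46 h than at 14 h. Without 16 h and 18 h, 34 genes had their highest value from 6 h to 14 h, as did 23.7% of all genes. The single time points with most highest values came later, at 30 h with 12 genes (6.06% of all genes) and at 32 h with 11 (15.8% of all genes). In turn 22 had their lowest value at 46 h, as did 10.8% of all genes, and 15 had it at 32 h, as did 8.83%. The 78 genes summed to 6127 FPKM at 14 h and 4825 FPKM at 46 h, and their share of the FPKM of all genes ran from 1.03% at 18 h to 1.25% at 14 h, with 1.06% at 46 h.

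**Figure D2:**
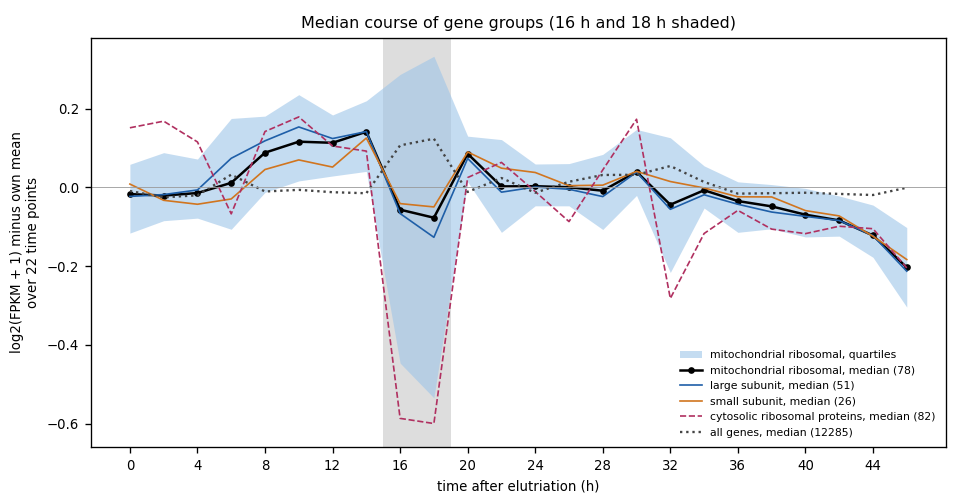
Lines are the medians over genes of log2(FPKM + 1) minus the gene's mean over 22 time points (vertical axis), against time after elutriation in hours, with the quartiles of the 78 genes as a band and 16 h and 18 h shaded in grey. The median of the 78 rises to 0.14 at 14 h and falls to -0.20 at 46 h while the median of all genes stays near 0, and at the shaded times the band widens in both directions. The line of the cytosolic ribosomal protein genes is also at -0.20 at 46 h.

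A trend over the series was tested with Kendall's S of FPKM against time, with an exact two-sided permutation p adjusted by Benjamini-Hochberg over all 12285 genes. Over 24 time points 19 of the 78 fell and none rose, where 12.8% of all genes fell and 15.0% rose at the adjusted threshold of 0.05. At an unadjusted p of 0.05, 37 fell and 2 rose, and the share of all genes at that p was not counted. Over the 22 time points 32 fell, the 19 among them, and 2 rose, where 16.4% of all genes fell and 18.3% rose. Kendall's tau over the 22, which is negative where later values are lower, was below 0 in 63 of the 78 and in 6263 of all 12285 genes. Its median was -0.31 over the 78 against -0.01 over all genes. The p-values treat time points as exchangeable, and neighbouring points of 1 culture are not independent.

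The decline was spread over the roles. Over the 22 time points 22 of 51 large subunit genes and 10 of 26 small subunit genes fell, with a median tau of -0.33 and -0.25. With a bacterial counterpart 20 of 48 fell, and without one 12 of 29. The cytosolic ribosomal protein genes fell in 61 of 82 cases and the nuclear-encoded respiratory chain subunits in 28 of 80, with 0 and 1 rising and median tau values of -0.45 and -0.31. The difference between these lists was not tested.

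MRPL40, a large subunit protein with no bacterial counterpart, had the lowest tau over the 22 time points. It was between 100 and 114 FPKM from 0 h to 14 h, at 95.2 FPKM at 20 h, and from there fell to 72.3 FPKM at 46 h, its lowest value outside 16 h and 18 h. All 10 matched hours of the second day were below the first, by a mean of 0.31 ± 0.07 (SD, n = 10 hours) on the log2 scale. Its tau was -0.66 over 24 time points (exact Kendall adjusted p = 5.12e-05) and -0.83 over 22 (adjusted p = 1.10e-07). Its promoter, shown above, held neither of the exact sets of letters searched.

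MRPL39 had the lowest tau over 24 time points. Its FPKM was 62.4 at 0 h, 64.7 at 4 h and 42.6 at 46 h, with a median of 53.4, and its tau was -0.70 (exact Kendall adjusted p = 1.05e-05), with -0.71 over 22. At 16 h and 18 h it was level with its neighbours, at 52.8 and 55.3 FPKM. MRPL15, a counterpart of a bacterial protein, was at 83.1 FPKM at 0 h and 114 FPKM at 10 h, and was lowest at 46 h with 66.6 FPKM. Its tau was -0.63 over 24 time points (exact Kendall adjusted p = 0.00013) and -0.68 over 22. MRPL24 went from 64.2 FPKM at 6 h to 40.5 FPKM at 38 h and 40.8 FPKM at 46 h, with a tau of -0.60 over 24 time points (exact Kendall adjusted p = 0.000319) and -0.65 over 22. MRPL58, the rescue hydrolase, was highest at 6 h (58.3 FPKM) and lowest at 44 h (37.4 FPKM), with a tau of -0.49 over 24 time points (exact Kendall adjusted p = 0.00465) and -0.47 over 22.

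The genes at the other end of the ranking did not share the decline. MRPL30, a counterpart of a bacterial protein, was at 59.8 FPKM at 0 h, was at its lowest value of 50.1 FPKM at 8 h, when most members were high, and stayed between 58.6 and 66.6 FPKM from 20 h on. Its tau of 0.31 did not pass over 24 time points (exact Kendall adjusted p = 0.0931) and 0.41 passed over 22 (adjusted p = 0.0247). MRPS5 of the small subunit had the same tau of 0.41 over 22 time points, with 65.2 FPKM at 8 h, 91.2 FPKM at 32 h and 72.3 FPKM at 46 h. MRPS21, MRPL49 and MRPL32 came next, with tau values over 24 time points of 0.24, 0.21 and 0.17, and none of them passed. Of these, MRPL30 and MRPS5 share exonic positions with another annotated gene on the same strand, MRPL49 and MRPL32 with one on the other strand, and MRPS21 has 8 annotated pseudogenes.

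**Figure D3:**
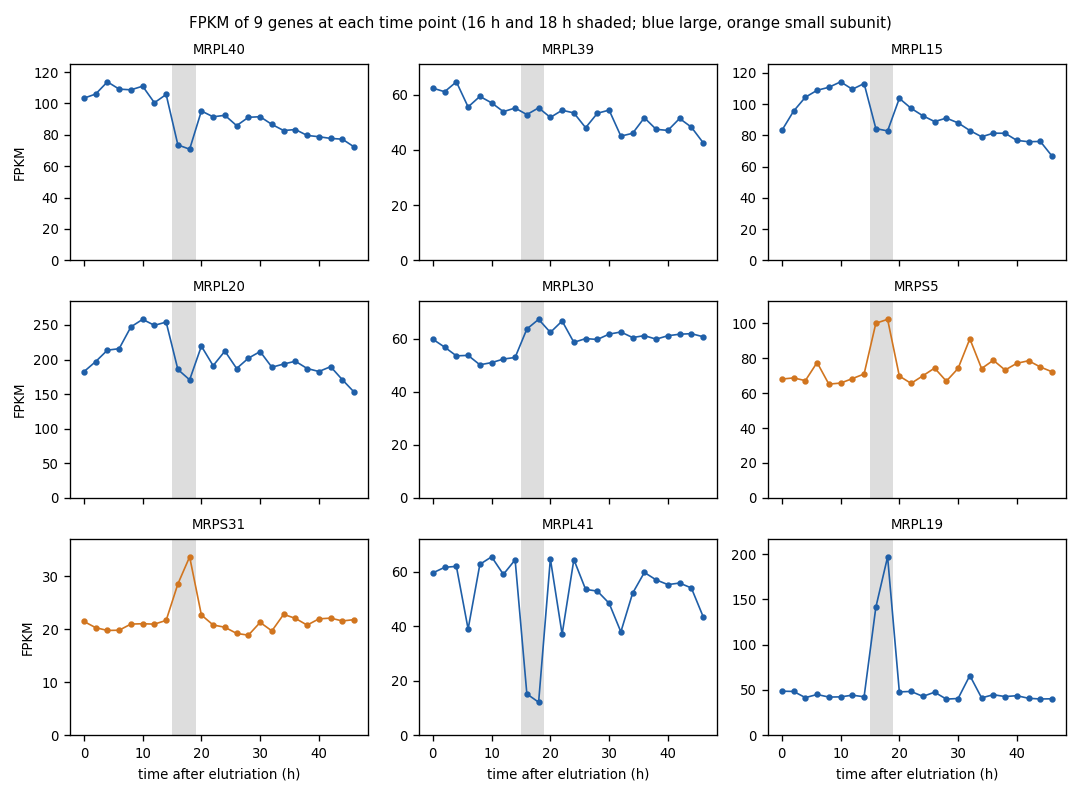
FPKM of 9 genes at each time point after elutriation, in hours, with every vertical axis starting at 0 and 16 h and 18 h shaded. MRPL40, MRPL39 and MRPL15 end lower than they began, MRPL30 and MRPS5 do not, and at the shaded times MRPL41 drops to 12.1 FPKM and MRPL19 climbs to 197 FPKM.

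Levels of each gene were compared with the median of the other members by Pearson r on log2(FPKM + 1). The median r was 0.38 over 24 time points and 0.50 over 22. Over 22 it was above 0 in 72 of the 78 and in 6284 of all 12285 genes, whose median was 0.01. The respiratory chain subunits had a median r of 0.45 with the median of the 78 over 22 time points (73 of 80 above 0). For the cytosolic ribosomal protein genes it was 0.40 (81 of 82 above 0), so the likeness was not particular to the 78. Among the 78, MRPL20 had the highest r over 24 time points (0.84), followed by MRPS7 (0.79) and MRPL15 (0.76). Over 22 time points MRPL9 was highest at 0.89, against 0.25 over 24, since it was at 112 and 111 FPKM at 16 h and 18 h when the median was low. The lowest values were those of MRPL30 (-0.43 over 24 and -0.36 over 22), MRPS5 (-0.38 and -0.28) and MRPS30 (-0.37 and -0.32). Between single genes the likeness was weaker, with a median r over the 3003 pairs of 0.26 for 22 time points and 0.17 for 24. For 22 it was 0.30 within the large subunit, 0.16 within the small and 0.25 between the subunits.

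Among genes outside the set with a mean of at least 10 FPKM, those most like the median of the 78 over 22 time points were ATP5MC1 (r = 0.91), a subunit of the ATP synthase ring, and PPIB (r = 0.90), a peptidyl-prolyl isomerase of the endoplasmic reticulum. GTF3C6 (r = 0.89), a subunit of the RNA polymerase III factor TFIIIC, MRTO4 (r = 0.88), a factor in cytosolic large subunit assembly, and FAM136A (r = 0.88) followed. They were ranked on these same time points and are listed as a description.

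**Figure D4:**
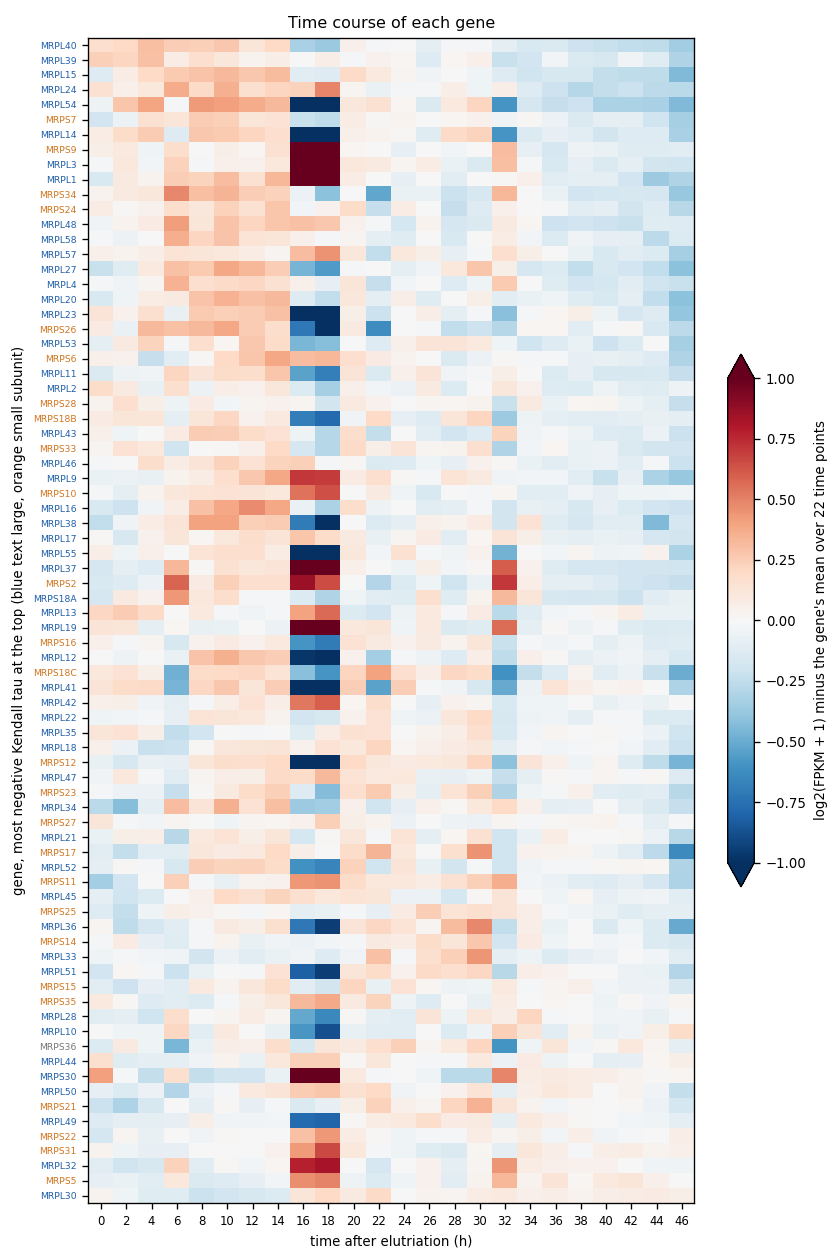
Each row is a gene and each column a time point in hours after elutriation, coloured by log2(FPKM + 1) minus the gene's mean over 22 time points (red higher, blue lower, colours end at 1 and -1), with the most negative tau over 22 time points at the top. Most rows are red from 8 h to 14 h and blue from 40 h on, and 16 h, 18 h and to a smaller degree 32 h form columns of mixed strong colours.

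The share of genes called for a 24 h order in time did not exceed that of all genes. A period of 24 h spans 12 time points, which the study takes as a single cell cycle. JTK, which ranks each gene's agreement in order with 24 h cosines shifted to 12 starting points, called 8 of the 78 (10.3%) at an adjusted permutation p of 0.05, against 13% of all genes. Without 16 h and 18 h it called 4 (5.13%) against 16.2%, and 3 genes were called both times: MRPS31, MRPS18A and MRPS2. MRPS31 ranked first (adjusted permutation p = 0.00565) with its phase at 16 h, and its FPKM was 28.5 at 16 h and 33.6 at 18 h against a range of 18.9 to 22.8 at the other time points. Its adjusted p over 22 time points was 0.0275 by the same permutation test. MRPL27 (adjusted permutation p = 0.0155), whose promoter holds the ETS core in 2 places, was at 73.1 FPKM at 10 h, 67.8 FPKM at 30 h and 41.7 FPKM at 46 h, and over 22 time points it missed the threshold at 0.0611. MRPS18A had peaks at 6 h (75.5 FPKM) and 32 h (69.7 FPKM), and MRPS2 was high there too, at 96.75 and 106 FPKM. Both times are among the 22, and both show a smaller scatter like that at 16 h and 18 h, described below. Without 6 h, 16 h, 18 h and 32 h JTK called 2 of the 78, against 8.64% of all genes. MRPL38 and MRPL40 were also among the first 5, both at an adjusted permutation p of 0.0342, and neither was called over 22 time points. The other genes called over 24 time points were MRPL45, MRPS2 and MRPS25, and MRPL34 was called over 22 alone.

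Levels of the second day were compared with the first at matched hours, which leaves 10 pairs without 16 h and 18 h. The mean difference was below 0 in 61 of the 78 and in 5799 of all 12285 genes. Its median over the 78 was -0.09 on the log2 scale against 0.01 over all genes. With all 12 matched hours the median was -0.06. Since a library from a whole culture averages over cells, fewer cells expressing a gene and less transcript per cell cannot be told apart.

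At 16 h and 18 h the genes scattered in both directions. The deviation of a gene was its mean distance, over both samples, from a line drawn through its values at 14 h and 20 h on log2(FPKM + 1). It had a median of -0.15 over the 78 (50 below 0 and 28 above) and of 0.14 over all genes. At the 16 other consecutive pairs of time points the median of the 78 lay between -0.04 and 0.05 and none of the genes was 2-fold off. At 16 h and 18 h 5 genes were 2-fold or more above the line, where 8.95% of all genes were, and 10 were 2-fold or more below, where 7.11% were. Beyond all of their own 16 other pairs, 22 of the 78 lay above and 35 below, where 43.6% and 28.0% of all genes did. The scatter was alike at both times, with the same sign in 72 of the 78.

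The highest were MRPL19 (1.86), MRPS30 (1.595), MRPL37 (1.42), MRPS9 (1.14) and MRPL3 (1.06). MRPL19 was at 42.5 FPKM at 14 h, 141 FPKM at 16 h, 197 FPKM at 18 h and 47.9 FPKM at 20 h. MRPS30 was at 215 and 273 FPKM at 16 h and 18 h, between 75.1 FPKM at 14 h and 84.1 FPKM at 20 h. The lowest were MRPL41 (-2.17), MRPL54 (-2.08), MRPS12 (-1.84), MRPL14 (-1.56) and MRPL23 (-1.46), followed by MRPL55, MRPL12, MRPS26, MRPL38 and MRPL51. MRPL41 was at 64.3 FPKM at 14 h, 15.1 FPKM at 16 h, 12.1 FPKM at 18 h and 64.7 FPKM at 20 h. MRPS12, part of the decoding centre, went from 78.4 FPKM to 22.8 and 19.5 FPKM and back to 77.99 FPKM. MRPL1 (0.996) and MRPL36 (-0.97) lay just inside the 2-fold limits.

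Base composition moved with this scatter. The deviation had a Pearson r of -0.55 with the GC content of the gene's representative transcript over the 78 genes, and of -0.52 over 12148 genes. The 39 genes above the median GC content of 49.6% had a median deviation of -0.47, with 33 below 0. The other 39 had a median of 0.09, with 17 below 0. With log2 transcript length the r was 0.30. The part of GC content in the deviations was not tested.

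**Figure D5:**
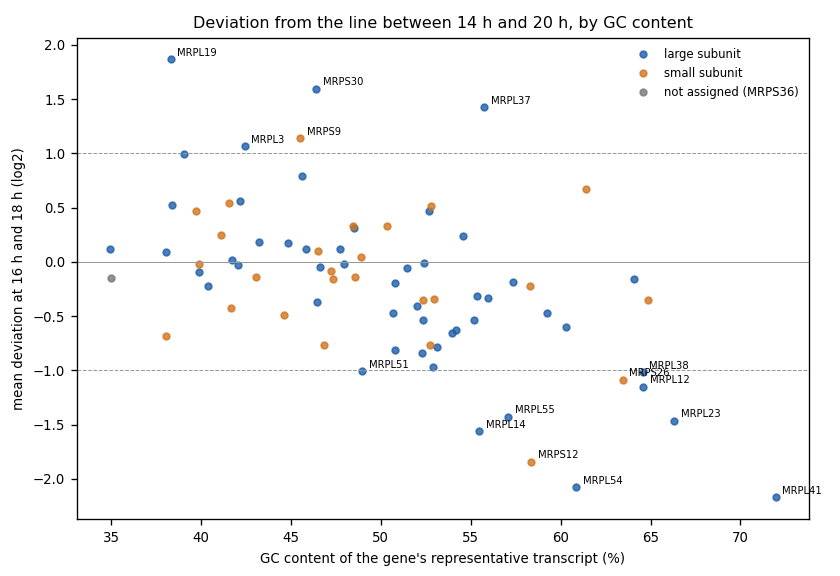
Each dot is a gene, with the GC content of its representative transcript in percent on the horizontal axis and its distance from the line through 14 h and 20 h, averaged over 16 h and 18 h, in log2 units, on the vertical axis. Dashed lines mark 2-fold. The genes named above the upper line lie at 38.3% to 55.8% GC and those below the lower line at 48.9% to 71.9%.

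A smaller scatter of the same kind was present at 32 h and 6 h. At 32 h each gene's distance from the average of its 30 h and 34 h values was compared with its deviation at 16 h and 18 h, which gave a Pearson r of 0.70 over the 78 genes and 0.599 over all genes. All 5 genes that were 2-fold above at 16 h and 18 h were above their neighbours at 32 h, and all 10 that were 2-fold below were below. The same held at 6 h, where the r was 0.57 over the 78 genes and 0.49 over all genes. The r over all genes shows that this likeness was not particular to the 78, and the agreement in sign was not counted among all genes. MRPL41 was at 38.9 FPKM at 6 h, 37.0 FPKM at 22 h and 37.9 FPKM at 32 h, each lower than its neighbours. Leaving out 6 h and 32 h as well, 30 genes fell and 2 rose, where 16.3% of all genes fell and 18.1% rose. Without 16 h, 18 h and 46 h, 21 fell and 2 rose, where 13.5% of all genes fell and 15.9% rose. Leaving out 46 h as well as 16 h and 18 h thus took the count of falling genes from 32 to 21. The share of all genes that fell was also smaller, and the median tau of the 78 went from -0.31 to -0.26. No other time point was left out singly in this way.

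The ratio of the mean level of large subunit genes to that of small subunit genes lay between 1.04 and 1.08 from 0 h to 14 h and between 1.004 and 1.03 from 20 h on, with no overlap. It was 1.13 at 16 h and 1.19 at 18 h. The medians over genes did not show this rise of the large subunit. On log2, against each gene's own mean, they were -0.07 and -0.13 for the large subunit and -0.04 and -0.05 for the small. The ratio gives more weight to genes of high FPKM, and MRPL37 (463 FPKM at 18 h), MRPS30 (273 FPKM) and MRPL19 (197 FPKM) are counted in the large subunit.

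GC content also moved with the trend. Over the 22 time points 21 of the 39 genes above the median GC content fell and 11 of the other 39, and tau had a Pearson r of -0.28 with GC content over the 78 genes and of -0.07 over all genes. Few markers of other cells were in the table. Of 8 lymphoid markers 2 were in it, among them CD3D, a T cell marker. CD3D was at 4.2 to 12.9 FPKM over the 22 time points and rose over 24. Of 8 fibroblast markers COL1A2 was in the table, at 1.70 to 3.94 FPKM, and it rose as well. The summed level of the 14 erythroid markers was 6205 to 9336 FPKM outside 16 h and 18 h. Over those 22 time points 1 of the 14 rose (NFE2) and 4 fell (ALAS2, HBZ, EPOR and TAL1), and over 24 the same gene rose and 2 fell (ALAS2 and HBZ). The rising and falling shares were 7.14% and 28.6% over 22, against 18.3% and 16.4% of all genes. Over 24 they were 7.14% and 14.3%, against 15.0% and 12.8%. The part of GC content and of these markers in the decline of the 78 genes was not tested.

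The remaining genes of the pathway gave a mixed picture. Of the 5 ribosome subunits under other symbols, CHCHD1 (tau -0.49 over 24 time points and -0.64 over 22) and GADD45GIP1 (tau -0.38 and -0.39) fell with and without 16 h and 18 h. PTCD3, a small subunit protein that binds RNA, rose in both (tau 0.49 over 24, exact Kendall adjusted p = 0.00465, and 0.64 over 22). AURKAIP1 fell over 22 time points, and DAP3, a GTP-binding protein of the small subunit, passed neither test, with 204 to 266 FPKM. Of 27 genes for ribosome assembly and mitochondrial rRNA modification, 8 (29.6%) fell over 24 time points, where 12.8% of all genes did, and none rose: MRM2, DDX28, NGRN, DHX30, YBEY, ERAL1, MTIF3 and MALSU1. Over 22 time points these and RPUSD4 fell, 9 in all (33.3% against 16.4%), and none rose. ERAL1, a GTPase that chaperones the small subunit rRNA, had a tau of -0.55 over 24 time points, and DDX28, a helicase of large subunit assembly, of -0.52. JTK called 8 of the 27 (29.6%) over 24 time points, against 13% of all genes, namely MTG2, MRM2, TRUB2, NOA1, DDX28, NGRN, RBFA and DHX30. Over 22 it called 6 (22.2% against 16.2%), of which MTG2, MRM2, TRUB2, NOA1 and RBFA were among the 8 and YBEY was not.

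Of 17 genes for mitochondrial translation factors and RNA-binding partners, MRRF, TACO1, SLIRP and MTIF3, which is in both lists, fell over 24 time points (23.5%) and none rose, and JTK called LRPPRC, MRRF and GFM2. Over 22 time points 6 of the 17 fell (35.3%) and 3 rose, and JTK called 4. None of the 12 genes for mitochondrial transcription and genome maintenance was called by either test, over 24 or over 22 time points. Over all genes the shares ran from 12.8% to 18.3% for each test and direction. Of 11 regulators of nuclear genes for mitochondrial proteins, HCFC1 (tau over 24 time points -0.59), NRF1 (-0.53) and PPRC1 (-0.67) fell over 24 and over 22 time points. These are 27.3% of the list, against 12.8% of all genes over 24 and 16.4% over 22. NRF1 itself was at 8.95 to 19.3 FPKM over the 22 time points, and PPRC1, a coactivator related to PGC-1alpha, at 13.9 to 39.8 FPKM. HCFC1 and NRF1 were also called by JTK in both, and PPRC1 and GABPB2 over 22 alone. Genes encoded in mitochondrial DNA were represented by 5 in the table, at a median of 2.10 FPKM, and were not compared with the nuclear genes.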

How the data were processed

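RNA-seq of 24 K562 samples, 1 per time point from 0 h to 46 h, was analysed, with each sample assigned to its time from the labels. The authors aligned reads with STAR and made the deposited FPKM values with Cufflinks and Cuffnorm on GRCh37, per the submitters' processing notes; versions and annotation are not given in the sources used here. The authors also deposited a cleaned table of a score per gene and time point (Z-scored and quantile normalized), used here only as an alternative. All columns were used. Depth is unknown, and genes present had passed a filter of the authors on low values, so precision from counting cannot be given.

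GENCODE 29 (GRCh38) gave symbols, gene types, transcript length and GC content for 12180 of 12285 identifiers, and RefSeq (GRCh38.p14) gave promoters, matched by symbol. Analyses used Python 3.11.15 with numpy 2.4.6 and pandas 2.3.3. A pseudocount of 1 was added before log2, which understates changes of low genes, and deviations needed a mean of 1 FPKM or more. JTK used 100000 permutations and Kendall's test the exact distribution, both adjusted by Benjamini-Hochberg over all genes and called at 0.05. Both were checked on simulated data. Subunits and ancestry were assigned from general knowledge.

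Genes named with values are the 5 highest and 5 lowest by median FPKM, deviation and Kendall S, the first 5 by JTK, the 3 highest and lowest by r and by ratio of highest to lowest FPKM, MRPS18A, MRPS18B, MRPS18C, MRPS30, MRPS36, MRPL58, MRPL12, ribosome subunits under other symbols, the 5 other genes most like the median, and genes of the other lists that a test called. MRPL9, MRPL1, MRPL36, the head-to-head pairs and the remaining genes were named after their values were seen. The genes and lists were chosen with earlier results of these data known. The remaining lymphoid markers are not reported here.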

Additional observations from a re-analysis of the deposited data

How the results depend on the processing

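The results above rest on 1 culture with 1 library per time point and unknown depth, so leaving out a replicate was not an option and no error between cultures can be given. No paired analysis was possible because no replicates exist to be paired; the matched hours of both days come from the same culture. Trends and levels are relative to the FPKM scale of each library. The median tau and the median r of the 78 genes kept their sign under every alternative run for them. Of 53 values under an alternative, 33 stayed within 1.5 times a count or within the spread of a median. Some of the 33 could not have moved. All 78 genes average 10 FPKM or more, so dropping or raising the filter on mean FPKM could not change their deviations. A fold threshold likewise cannot change a median. In turn, no gene rose as deposited, so any rising gene made that count a moved value. The tally therefore does not measure how stable the results are. For the values that moved, the cause was not tested.

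Scaling each time point to a common median or upper quartile moved the median deviation of all genes at 16 h and 18 h from 0.14 to 0.03 and -0.06, and that of the 78 genes from -0.15 to -0.27 and -0.39. With the upper quartile 3 genes were 2-fold above in place of 5. At 1.5-fold 8 genes (10.3%) were above and 20 (25.6%) below, where 23.9% and 16.8% of all genes were. The share of all genes that passed each test moved with these settings and is given in brackets. The number of the 78 that fell was 19 as deposited (12.8%) and 32 without 16 h and 18 h (16.4%), 28 with median scaling (16.9%), 16 with upper-quartile scaling (11.1%), 16 with quantile normalization (14.1%) and 23 in the cleaned table (13.6%). It was 30 without 6 h, 16 h, 18 h and 32 h (16.3%) and 21 without 16 h, 18 h and 46 h (13.5%). Without 16 h and 18 h it was 37 with median scaling (20.5%) and 28 with upper-quartile scaling (15.2%). These last 4 settings were chosen after the data were seen. The number that rose was 0 as deposited (15.0%), with 2 at an unadjusted p of 0.05, at which all genes were not counted. It was 2 without 16 h and 18 h (18.3%), also with 6 h and 32 h (18.1%) or 46 h (15.9%) left out or with median scaling (16.0%), and 3 with upper-quartile scaling (19.7%). With all time points it was 1 with median scaling (13.9%), 1 with upper-quartile scaling (17.1%), 1 in the cleaned table (14.9%) and 3 with quantile normalization (13.9%).

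JTK calls went from 8 as deposited (13%) to 4 without 16 h and 18 h (16.2%), 5 with median scaling (13.4%), 3 in the cleaned table (12.6%) and 2 without 6 h, 16 h, 18 h and 32 h (8.64%), of which 3, 4, 1 and 2 were among the 8. They were 8 with upper-quartile scaling (13.5%) and 6 with quantile normalization (13.3%), of which 4 and 3 were among the 8, and 10 among genes averaging 10 FPKM or more (16.2%), the 8 included. At periods of 20 h and 28 h JTK called 0 and 0 (2.28% and 4.12%), with 22 and 9 genes at an unadjusted permutation p of 0.05. The share of all genes at that unadjusted p was not counted.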
